A study of Mus musculus with 16 samples.

Results

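The 9 genes followed here were picked as a set for RNA that differed between *Stat3* null and wild-type (WT) cells of the same tissue in chimeric mouse embryos. They are *Cwc22*, *Pusl1*, *Akr1e1*, *Akr1b8*, *Fam196b*, *Msrb2*, *Eif3j1*, *Ccnb1ip1* and *Clic6*, 9 of the 29453 genes of the count matrix. A shift in many tissues does not hold for all 9, as *Eif3j1*, *Ccnb1ip1* and *Clic6* were called in few types in the fits below. The members were chosen by the null against WT difference in these same libraries, so their null and WT values are a description and carry no test. Tests are given for other measures. They are the stage change within a genotype, cells with the wrong tdTomato status for their gate, and genes near or related to the members. The stage fits and the null cells without tdTomato use counts that also entered the choice. Their p-values are therefore not independent of it.

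STAT3 is a transcription factor that is phosphorylated downstream of cytokine receptors, such as the receptor for leukaemia inhibitory factor, and then binds DNA to change the transcription of its targets. It sustains self-renewal of mouse embryonic stem cells (ESCs) in culture. No pathway common to the 9 genes was tested for. CWC22 binds the spliceosome and loads EIF4A3, the core of the exon junction complex, onto RNA. PUSL1 resembles pseudouridine synthases, enzymes that isomerise uridine in RNA. AKR1E1 and AKR1B8 are aldo-keto reductases, which reduce aldehydes and sugars with NADPH. MSRB2 reduces oxidised methionine in mitochondria. EIF3J1 belongs to the translation initiation factor eIF3, CCNB1IP1 is a ubiquitin ligase needed for meiotic crossing over, and CLIC6 is a chloride intracellular channel protein.

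Donor cells were *Stat3* null ESCs that expressed tdTomato, of CD1 background. By the study's methods the null allele replaces part of *Stat3* with a neomycin resistance cassette. They were injected into WT CD1 blastocysts, and the chimeras were collected on 3 embryonic days, E7.5, E8.5 and E9.5. Cells were sorted into tdTomato-positive (null) and tdTomato-negative (WT) cells. Hence null and WT also differ in origin, donor ESC against host embryo, in the tdTomato transgene and in the neomycin cassette. The study grew its tdTomato lines from picked colonies, so variants carried by the donor line may be shared by all null libraries. *Stat3*-intact donor cells were not analysed here, so these differences and the loss of *Stat3* cannot be told apart. Embryos were pooled at E7.5, by size, and at E8.5. At E9.5 the study names 2 embryos, fewer than the libraries of a genotype, so the spread between libraries there may be partly technical. The fits take libraries as independent. Where E9.5 libraries share an embryo, their SDs, SEs and p-values may be too small. Of the 16 libraries, the E9.5 groups held 4 null and 4 WT and each earlier stage 2 null and 2 WT, named by letters within a group that pair nothing. In the study each embryo pool gave a null and a WT library. Libraries could not be matched to pools here, so the null against WT fits ignore that pairing. A level below is the number of UMIs (unique molecular identifiers, each a counted molecule) of a gene per 1000000 UMIs of all genes, written CPM.

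The analysis kept 37841 of 41832 cells, leaving out called doublets and any WT-sorted cell that held a tdTomato UMI. The kept cells fell in 87 author-assigned types, with 360 to 4327 cells and 20682659 to 138613245 UMIs per library. Blood, endothelial, heart and somite markers were highest in types of those names, as *Hba-x* in Erythroid, *Cdh5* in YS endothelium and *Tnnt2* in Cardiomyocytes SHF 2. Others peaked elsewhere, as *Tfap2a* of neural crest in Epidermis, *Foxa2* of endoderm in Node, *Utf1* of epiblast in ExE ectoderm, and *Eomes* and *Cdx2* of extra-embryonic ectoderm in Primitive Streak and NMPs/Mesoderm-biased. E9.5 WT C and D shared 375 cell barcodes, against at most 12 for any other pair of libraries, and only 2.67% of the 375 had the same cell type in both. Without those barcodes the E9.5 member calls over cell types numbered 96 in place of 101, and the counts of member calls in the other comparisons did not move. *Stat3* itself lay at 1.16 to 2.54 CPM in the 8 null libraries and at 6.14 to 9.31 CPM in the 8 WT libraries, so the labels and the targeted gene went together. The remaining *Stat3* UMIs in null libraries were not assigned to exons.

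On the annotation of the mm10 build (GENCODE M21 coordinates) 3 members lay on chromosome 2, far from each other, and the others on 6 further chromosomes. *Msrb2* lies at chr2:19371440-19394976, *Cwc22* at chr2:77881159-77946375, *Eif3j1* at chr2:122028546-122056598 and *Pusl1* at chr4:155887879-155891781. *Akr1b8* lies at chr6:34354119-34368463, *Fam196b* at chr11:34314822-34422640, *Akr1e1* at chr13:4590750-4609174, *Ccnb1ip1* at chr14:50789248-50807732 and *Clic6* at chr16:92485736-92541243. *Fam196b* lies inside *Dock2* on the opposite strand, and the ends of *Pusl1* and *Eif3j1* overlap *Ints11* and *Spg11*, also on opposite strands. Reads were counted with Cell Ranger for a 3′ droplet chemistry, which keeps the strand of the RNA and so separates genes on opposite strands.

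The sequences before the starts of *Cwc22*, the member shifted in most tissues, and of *Akr1e1* and *Akr1b8*, the aldo-keto reductases that were both lower, are shown because these members moved across unrelated cell types. RefSeq promoter windows (GRCm38.p6, 250 bases before to 50 after the start) were held for 7 of the 9 members, all but *Fam196b* and *Clic6*. The stretch from 250 to 31 bases before the start is printed, 5′ to 3′ on the gene's strand, with each CG dinucleotide in capitals. They lie at chr2:77946387-77946606 (minus strand), chr13:4609195-4609414 (minus strand) and chr6:34353896-34354115 (plus strand).
Cwc22: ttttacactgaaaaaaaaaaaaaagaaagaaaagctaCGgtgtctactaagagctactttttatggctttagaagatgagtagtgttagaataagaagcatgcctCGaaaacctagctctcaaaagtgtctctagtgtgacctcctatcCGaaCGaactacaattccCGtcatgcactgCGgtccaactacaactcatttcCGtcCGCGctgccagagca
Akr1e1: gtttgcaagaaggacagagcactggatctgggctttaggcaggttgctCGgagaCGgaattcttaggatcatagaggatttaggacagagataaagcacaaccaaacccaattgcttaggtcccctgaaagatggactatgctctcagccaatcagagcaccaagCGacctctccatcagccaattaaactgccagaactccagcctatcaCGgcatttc
Akr1b8: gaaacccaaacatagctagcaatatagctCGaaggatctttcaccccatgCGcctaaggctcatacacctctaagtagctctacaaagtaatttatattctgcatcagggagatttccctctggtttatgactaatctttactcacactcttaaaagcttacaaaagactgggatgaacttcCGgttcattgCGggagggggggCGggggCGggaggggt

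The full 300 base windows held 11 CG dinucleotides for *Cwc22*, 6 for *Akr1e1*, 10 for *Akr1b8*, 9 for *Msrb2*, 13 for *Ccnb1ip1*, 31 for *Eif3j1* and 36 for *Pusl1*, and the median of 27025 gene windows was 7. The *Ccnb1ip1* window, chr14:50795679-50795978, lies inside the gene as placed above. It is not at the start from which distances to its neighbours are given below. The STAT motif TTCNNNGAA, which reads the same on both strands, was in 0 of the 7 windows and in 8.47% of all windows of that length. That says only that these letters are not in these windows.

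*Cwc22* RNA was higher in null cells of every E9.5 tissue measured. At E9.5 the null libraries A to D held 174, 154, 168 and 165 CPM and the WT libraries 38.2, 36.7, 38.5 and 37.4 CPM. The groups did not overlap, with means of 165 ± 8.37 and 37.7 ± 0.818 CPM (SD, n = 4 each), a 4.38-fold difference. The E7.5 null libraries held 163 and 126 CPM and the WT libraries 109 and 87.7 CPM, a 1.47-fold difference. At E8.5 the values were 90.6 and 129 CPM in null and 59.04 and 62.9 CPM in WT, a 1.80-fold difference. The null libraries thus lay above the WT libraries at each stage, by least at E7.5.

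**Figure D1:**
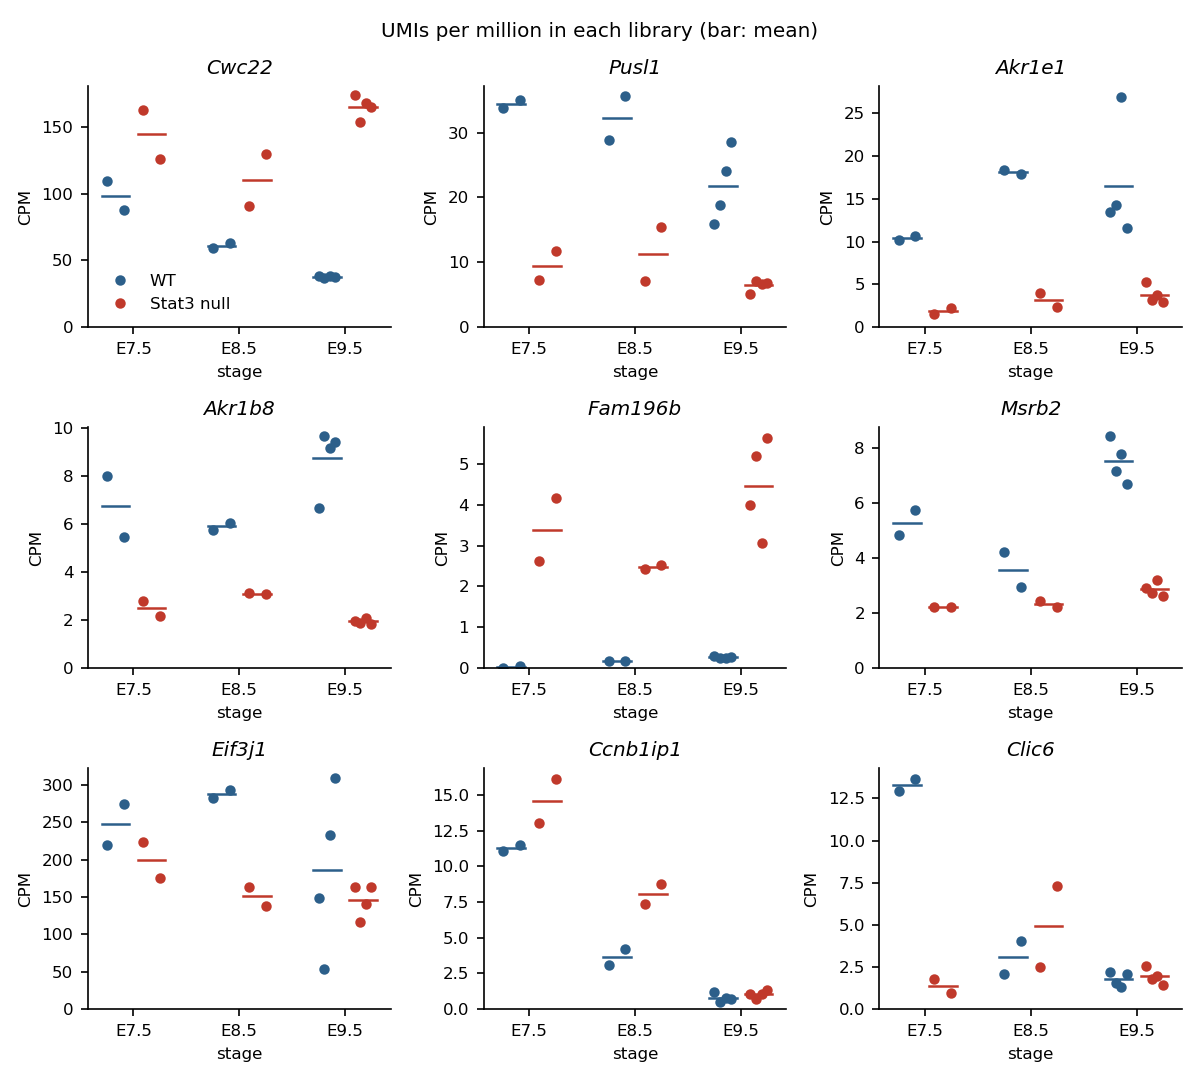
Level of each of the 9 genes in each of the 16 libraries (vertical axis, CPM from 0; horizontal axis, stage; points, libraries; bars, group means; blue WT, red *Stat3* null). *Cwc22* in WT falls from 98.5 CPM at E7.5 to 37.7 CPM at E9.5 by way of 61.0 CPM at E8.5, while the null mean is 144 CPM, 110.0 CPM and 165 CPM in stage order, and *Eif3j1* in the E9.5 WT libraries spreads from 53.9 to 310 CPM.

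Counts were also summed per library and cell type and fitted with the quasi-likelihood test of edgeR, null against WT. A type entered where 2 or more libraries of either genotype each had over 15 of its cells (7, 20 and 37 types in stage order). A gene was called in a type at an adjusted p under 0.05 and an absolute log2 fold change over 1. Over all genes and types, 0.0799% of E7.5 tests were called higher and 0.106% lower. The E8.5 shares were 0.029% higher and 0.0319% lower, and the E9.5 shares 0.0558% higher and 0.0641% lower. The 9 genes gave 46 tests at E7.5 with 4 called higher and 16 lower, 91 at E8.5 with 0 and 17, and 183 at E9.5 with 46 and 55. As the rule used this contrast, these counts restate the choice. Leaving out a library at E7.5 or E8.5 leaves 1 library of its genotype, so nothing is read from the call counts of such a fit. With over 50 cells per sum there were 3 calls at E8.5 and 57 at E9.5. Fewer types entered at that limit, and their tests and all-gene shares are not given, so the drop is not a count of lost calls. In each setting but that without the filter, a call could be made only where a gene passed the filter on low counts. A low gene can pass it through the genotype in which it is higher.

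*Cwc22* was called higher in 37 of 37 E9.5 types, in 1 of 7 at E7.5 (Blood progenitors) and in 0 of 20 at E8.5, although its fitted difference was positive in each of these types. The log2 fold change at E9.5 ran from 1.69 in EMP to 2.54 in Cardiopharyngeal progenitors SHF, with a median of 2.12 and a median SE of 0.14. Across the 37 E9.5 types the WT level was nearly even, from 31.9 CPM in YS mesothelium to 44.9 CPM in Cardiopharyngeal progenitors FHF. In null cells it ran from 136 CPM in Late dorsal forebrain progenitors to 208 CPM in Cardiopharyngeal progenitors SHF. The lowest WT types, YS mesothelium at 31.9 ± 5.58 CPM (SD, n = 3) and Thyroid primordium at 31.9 ± 9.91 CPM (SD, n = 3), did not differ beyond their spread. With each cell thinned to 10000 UMIs, 75.7% ± 1.68 of E9.5 null cells and 30.2% ± 0.757 of WT cells (SD, n = 4 libraries each) held a *Cwc22* UMI, against 96.3% and 63.4% with all UMIs.

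**Figure D2:**
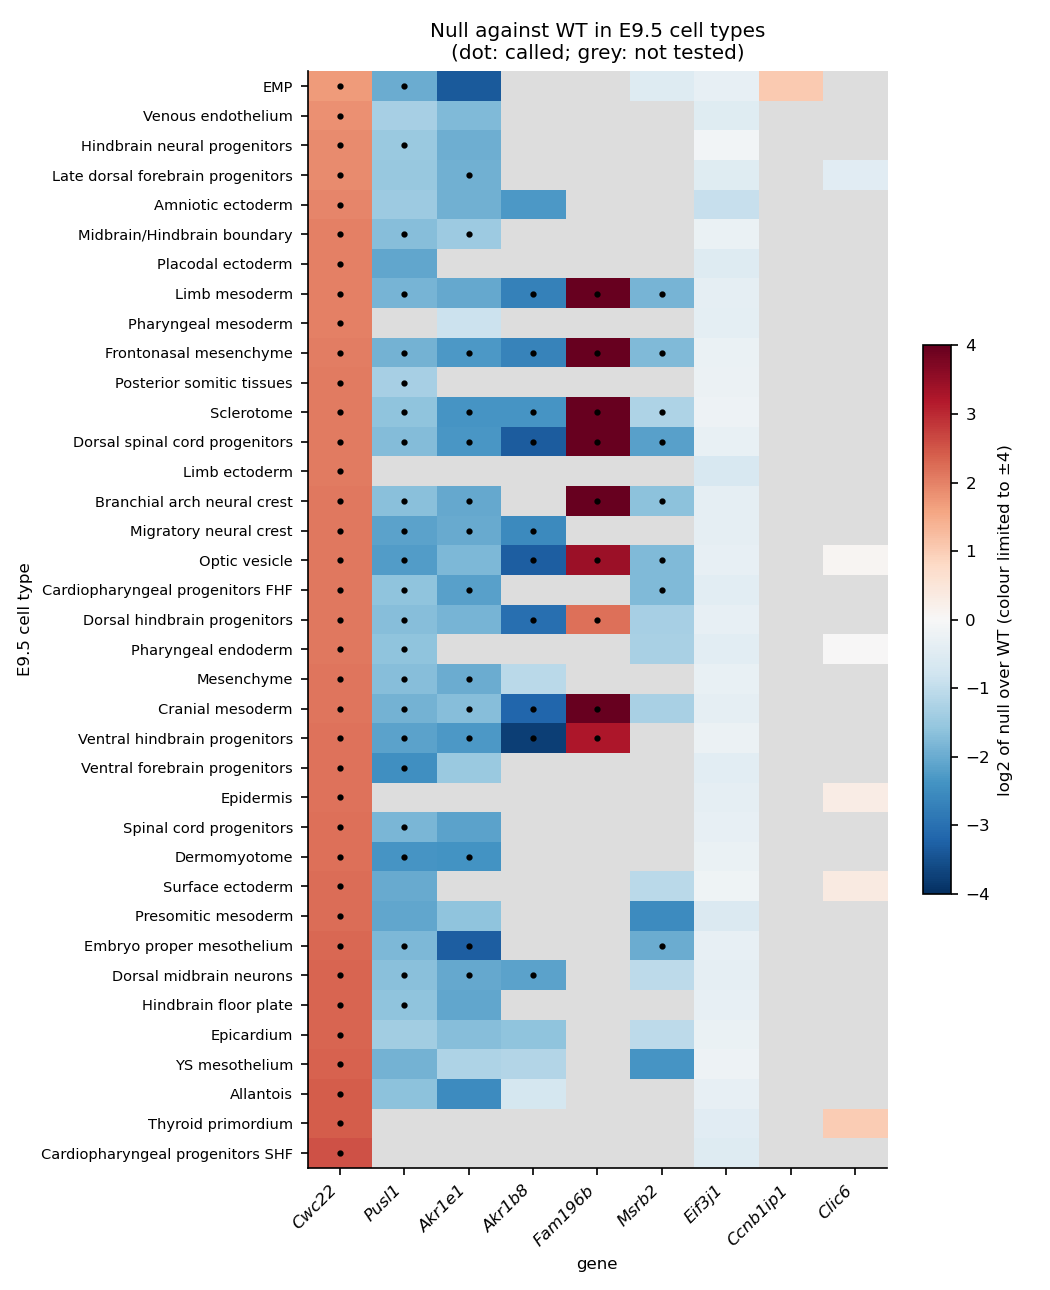
log2 of null over WT in each E9.5 cell type (rows, 37 types ordered by *Cwc22*; columns, the 9 genes; red higher in null, blue lower, colour limited to 4 either way; dot, called; grey, not tested because of low counts). *Cwc22* is called in 37 of 37 types, *Pusl1* is negative in 32 of 32, and *Eif3j1* is negative in 37 of 37 with none called.

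*Fam196b* also had more RNA in null cells and was close to absent from WT cells. WT A and B at E7.5 held 0 and 3 UMIs, so 0 UMIs in WT A allows a level of up to 0.11 CPM, and null A and B held 2.61 and 4.16 CPM. At E8.5 the levels were 2.44 and 2.53 CPM in null and 0.169 and 0.174 CPM in WT. At E9.5 the 4 null libraries held 4.00, 5.19, 3.06 and 5.62 CPM and the WT libraries 0.300, 0.241, 0.240 and 0.262 CPM, a 17.1-fold difference of the means without overlap.

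With 10000 UMIs per cell, 4.18% ± 1.04 of E9.5 null cells and 0.296% ± 0.0699 of WT cells (SD, n = 4 libraries each) held a *Fam196b* UMI, against 14.7% and 0.785% with all UMIs. It passed the filter in 9 of 37 E9.5 types and was called higher in 9 of 9, and in 2 of 2 at E7.5 and 0 of 3 at E8.5. The WT libraries together held at most 13 UMIs in each of the 9 E9.5 types. It passed there through the null libraries, so 9 of 9 restates the choice. In Branchial arch neural crest the null libraries together held 112 UMIs and the WT libraries 0, so the level was at least 29.7-fold higher with 3 counts over the WT group as the limit. In Dorsal hindbrain progenitors, with 75 null and 13 WT UMIs, it was 4.54-fold higher. WT UMIs were summed to 0 in 13 of the 37 types. Epidermis and Surface ectoderm had the highest means in both genotypes, at 9.501 ± 5.10 (SD, n = 4) and 9.34 ± 2.43 CPM (SD, n = 2) in null and 2.50 ± 1.14 (SD, n = 4) and 2.53 ± 2.37 CPM (SD, n = 3) in WT, and these neighbours in order did not differ beyond their spread.

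Of the members that were lower in null cells, *Pusl1* was so at every stage. The E7.5 null libraries held 7.23 and 11.8 CPM against 33.9 and 35.0 CPM in WT. At E8.5 it was 7.08 and 15.4 CPM in null and 28.9 and 35.7 CPM in WT. At E9.5 the null libraries held 5.14, 7.14, 6.63 and 6.81 CPM and the WT libraries 15.9, 18.8, 24.1 and 28.6 CPM. No null library reached the lowest WT library of its stage, and the means differed 3.63-fold, 2.87-fold and 3.40-fold in stage order.

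*Pusl1* was called lower in 7 of 7, 5 of 19 and 23 of 32 types in stage order, and was negative in each of these fits. The median log2 fold change was -2.05, -1.66 and -1.71 in stage order. At E9.5 it ran from -2.47 in Ventral forebrain progenitors to -1.32 in Posterior somitic tissues. Its WT level across types rose from 7.91 ± 3.96 CPM in Thyroid primordium (SD, n = 3) to 34.7 ± 9.45 CPM in EMP (SD, n = 4), where it was 9.29 ± 3.46 CPM in null cells (SD, n = 2).

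The aldo-keto reductase *Akr1e1* was lower as well. The E7.5 null libraries held 1.53 and 2.22 CPM and the WT libraries 10.2 and 10.7 CPM. At E8.5 the levels were 4.01 and 2.29 CPM against 18.4 and 17.9 CPM. At E9.5 the null libraries held 5.27, 3.12, 3.72 and 2.99 CPM and the WT libraries 13.4, 14.3, 26.9 and 11.6 CPM. WT C stood above the other WT libraries, and did so in 23 of the 24 types in which all 4 WT libraries had more than 15 cells.

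*Akr1e1* was called lower in 6 of 7, 8 of 18 and 14 of 29 types in stage order, and every fitted value was negative. The log2 fold change at E9.5 had a median of -2.003 and ran from -3.36 in EMP to -0.87 in Pharyngeal mesoderm. *Akr1b8*, a reductase of lipid aldehydes, was called lower in 2 of 5, 1 of 6 and 10 of 15 types in stage order. Its E9.5 levels were 1.98, 1.88, 2.08 and 1.86 CPM in null and 6.68, 9.65, 9.17 and 9.43 CPM in WT, a 4.48-fold difference. At E7.5 null held 2.81 and 2.18 CPM and WT 7.99 and 5.47 CPM, and at E8.5 null held 3.13 and 3.08 CPM and WT 5.75 and 6.06 CPM.

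*Akr1b8* differed most between tissues among the members that were lower. At E9.5 its WT level was 35.1 ± 7.91 CPM in Dorsal midbrain neurons (SD, n = 4), 28.8 ± 7.43 CPM in Allantois (SD, n = 3) and 23.3 ± 8.85 CPM in Mesenchyme (SD, n = 4), which neighbours in that order did not differ beyond their spread. In null cells the same 3 types were the highest, at 7.91 ± 0.659 (SD, n = 4), 17.2 ± 7.64 (SD, n = 2) and 10.5 ± 7.40 CPM (SD, n = 4). The log2 fold change ran from -3.76 in Ventral hindbrain progenitors to -0.70 in Allantois. At E8.5 its sign was positive in 1 of 6 types, Erythroid, at 0.36.

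*Msrb2* was lower in null cells by less. At E9.5 the null libraries held 2.92, 2.73, 3.21 and 2.62 CPM and the WT libraries 8.45, 7.16, 7.78 and 6.69 CPM, a 2.62-fold difference without overlap. At E7.5 null held 2.21 and 2.22 CPM against 4.82 and 5.73 CPM in WT, and at E8.5 2.44 and 2.20 CPM against 4.21 and 2.94 CPM, so the E8.5 gap between the groups was small. It was called lower in 0 of 4, 0 of 3 and 8 of 17 types in stage order, negative in each, with an E9.5 median of -1.64. EMP was the weakest type at -0.50, with 13.7 ± 3.17 CPM in WT (SD, n = 4) and 10.5 ± 4.16 CPM in null (SD, n = 2).

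The remaining 3 members were called in few types. *Eif3j1* was called in 0 of 7 types at E7.5, lower in 3 of 20 at E8.5 and in 0 of 37 at E9.5. Its E8.5 sign was nevertheless negative in 20 of 20 types, with a median of -0.88 and a range from -1.10 to -0.54, close to the fold that a call requires. Its E9.5 sign was negative in 37 of 37 with a median of -0.34 and a median SE of 0.53, and at E7.5 it was negative in 6 of 7 with a median of -0.05. At E8.5 the groups stood apart, with 164 and 138 CPM in null and 282 and 294 CPM in WT. At E7.5 they overlapped, with 224 and 175 CPM in null and 220 and 274 CPM in WT.

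At E9.5 the WT libraries A to D themselves ran from 148 and 53.9 to 233 and 310 CPM for *Eif3j1*, while the null libraries held 164, 116, 141 and 163 CPM. The order B, A, C, D from low to high recurred in 24 of the 24 types with more than 15 cells in each WT library. Across those types WT B held 34.1 to 83.6 CPM and WT D 191.5 to 467.1 CPM. *Eif3j2*, a paralogue, ran the other way, at 73.5 and 107 CPM in WT A and B and 26.4 and 28.3 CPM in WT C and D. WT B was the highest WT library of *Eif3j2* in 24 of 24 types. How reads of the pair were assigned to either copy was not tested, so the values of *Eif3j1* are uncertain. The *Eif3j2* means were higher in null than in WT at each stage, opposite to *Eif3j1*. They were 85.2 against 55.8 CPM at E7.5, where the groups did not overlap, 94.3 against 63.6 CPM at E8.5 and 72.0 against 58.7 CPM at E9.5, where they overlapped at both stages. The part of read assignment in the null and WT values was not tested either.

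**Figure D3:**
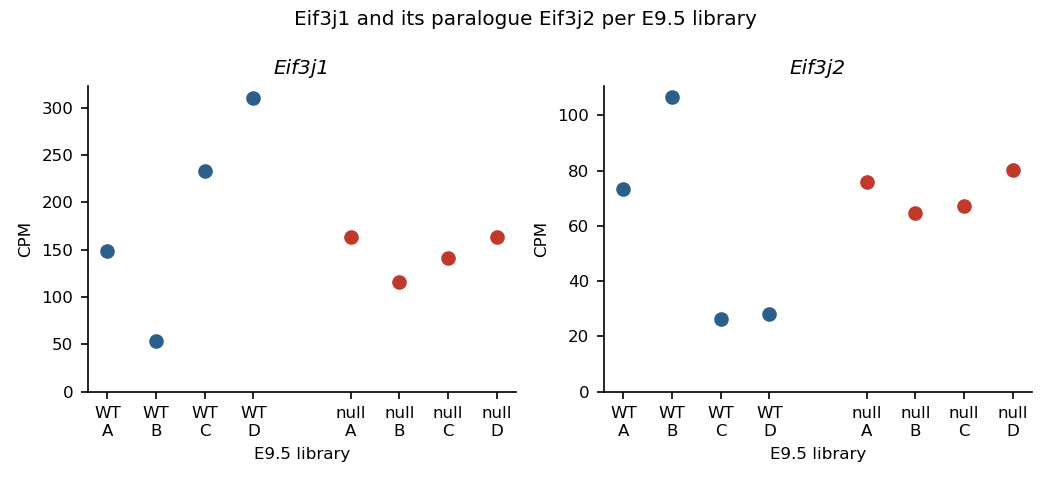
Levels of *Eif3j1* (left) and *Eif3j2* (right) in the 8 E9.5 libraries (vertical axis, CPM from 0; points, libraries; blue WT, red *Stat3* null). The WT libraries with most *Eif3j1*, D at 310 CPM and C at 233 CPM, have least *Eif3j2*, while the null libraries lie within 116 to 164 CPM for *Eif3j1* and 64.6 to 80.2 CPM for *Eif3j2*.

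*Clic6* passed the filter in few types at each stage, and *Ccnb1ip1* in 5 of 7 at E7.5 but in 1 at either later stage. Over whole libraries *Ccnb1ip1* had 13.1 and 16.1 CPM in null and 11.1 and 11.5 CPM in WT at E7.5, and 7.38 and 8.75 CPM against 3.06 and 4.23 CPM at E8.5, without overlap. At E9.5 it was 0.701 to 1.33 CPM in null and 0.509 to 1.21 CPM in WT, which overlapped. The log2 of null over WT at E9.5 was 0.39 over whole libraries and 1.60 when averaged over the cell types both genotypes share. Within the 5 E7.5 types its sign was negative in 3, with a median of -0.09. Of cell types, *Ccnb1ip1* was called higher only in E7.5 Blood progenitors, of 5 types tested, where null held 65.6 ± 12.1 CPM and WT 24.7 ± 6.59 CPM (SD, n = 2 each). It was positive and not called in the 1 type tested at E8.5, Erythroid, at 35.9 ± 10.6 against 13.5 ± 3.09 CPM (SD, n = 2 each), and in the 1 at E9.5, EMP, at 22.6 ± 10.7 (SD, n = 2) against 10.4 ± 3.91 CPM (SD, n = 4). All 3 types belong to the blood lineage, and at E8.5 and E9.5 no other type passed the filter. Below the filter, E9.5 Frontonasal mesenchyme held 2.67 ± 0.823 CPM in null and 0.415 ± 0.517 CPM in WT (SD, n = 4 each), without overlap. Over whole libraries *Clic6* had 1.79 and 0.967 CPM in null and 12.96 and 13.7 CPM in WT at E7.5, a 9.65-fold difference. At E8.5 it was 2.51 and 7.33 CPM in null and 2.09 and 4.04 CPM in WT, and at E9.5 1.42 to 2.58 CPM in null and 1.32 to 2.21 CPM in WT. The groups stood apart at E7.5 and overlapped at both later stages. Within types, *Clic6* was called lower only in E7.5 Blood progenitors, of 2 types tested, with 10 UMIs or 0.991 ± 0.249 CPM in null and 107 UMIs or 25.2 ± 2.07 CPM in WT (SD, n = 2 each). Over the 7 E7.5 types its median level was 1.11 CPM in WT and 0.644 CPM in null. Ectoderm, the other type tested, was not called, at 3.85 ± 1.18 CPM in WT and 1.47 ± 0.763 CPM in null (SD, n = 2 each). Intermediate mesoderm ran the other way, at 0.436 CPM in WT and 0.644 CPM in null. The part of library makeup in the 9.65-fold difference was not tested. In the 6 E9.5 types tested its log2 fold change ran from -0.44 to 1.02, positive in 5, with none called. Its highest E9.5 levels were in Epidermis, at 34.2 ± 9.88 CPM in null and 26.0 ± 9.04 CPM in WT (SD, n = 4 each).

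Over whole libraries, null and WT did not overlap for 8 of the 9 members at E7.5 and for 8 at the next stage. At E9.5 they did not overlap for 6. Of all genes at 1 CPM or more, 41.6%, 31.1% and 7.14% did not overlap at those stages, and as the rule used this contrast nothing is read from the counts. The 6 at E9.5 were *Cwc22*, *Pusl1*, *Akr1e1*, *Akr1b8*, *Fam196b* and *Msrb2*. The median of a gene's log2 fold change over E9.5 types lay between -0.28 and 0.31 for the central 90% of 12662 genes. Those of 8 of the 9 members, all but *Clic6*, lay outside that range, which restates the choice. The *Ccnb1ip1* value comes from 1 type and that of *Fam196b* from 9.

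Among the 8632 genes tested in at least 20 E9.5 types, 5 were called in most of their types. These were *Cwc22* and *Pusl1* and the non-members *Grb10* (lower in 30 of 37, median -4.69), *Hist1h4i* (lower in 22 of 37, -1.93) and *Zdbf2* (higher in 20 of 37, 1.03). *Grb10* and *Zdbf2* are imprinted genes, expressed mainly from one parental copy in many tissues. *Trhde* was called higher in 5 of 5 types. *Stat3* passed the filter in 13 types and was called lower in 8.

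The RNA of neighbouring genes was tested, since the choice of members did not use it. Of 82 annotated genes that start within 200 kb of a member's start, 31, 30 and 33 were tested in stage order. Unnamed (Gm and Rik) genes among the 82 stayed out of the fits, and the rest did not pass the filter on low counts. The tested neighbours were called in 0 of 206 tests at E7.5. At E8.5, 2 of 544 tests were called higher, both of *Casc4* near *Eif3j1*, and at E9.5, 2 of 1043 were called lower, both of *Mxra8* near *Pusl1*. *Casc4* was higher in Cranial mesoderm (log2 1.41 ± 0.25 SE, adjusted p = 0.00253) and Limb mesoderm (1.07 ± 0.22, adjusted p = 0.0194, n = 2 libraries a genotype, edgeR). *Mxra8* was lower in Branchial arch neural crest (-1.06 ± 0.23, adjusted p = 0.0293) and Frontonasal mesenchyme (-1.50 ± 0.33, adjusted p = 0.034, n = 4 a genotype, edgeR). Of these 4 calls over the 3 stages, DESeq2 gave 0, and 1 call was made with over 50 cells per sum, where fewer types entered. The all-gene shares given above, 0.029% higher at E8.5 and 0.0641% lower at E9.5, are those to read them against.

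The median over all tests of neighbours was 0.04, 0.03 and 0.01 in stage order, beside -0.0037 for the medians of all genes at E9.5. *Pusl1* had the most measured neighbours, 16, with E9.5 medians from -0.61 to 0.22. *Acap3*, whose start lies 0.041 kb upstream of that of *Pusl1* on the other strand, had a median of -0.14 with 0 of 18 types called, and the overlapping *Ints11* one of 0.16 with 0 of 37. *Parp2*, 0.109 kb from *Ccnb1ip1*, had one of 0.11. The aldo-keto reductases beside *Akr1b8* were not called, with medians of -0.13 for *Akr1b3* and -0.24 for *Akr1b10*. None of the neighbours of *Cwc22*, *Akr1e1*, *Fam196b* or *Msrb2* was tested at E9.5. Some were unnamed (Gm and Rik) genes, which stayed out of the fits, and the others had too few counts.

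**Figure D4:**
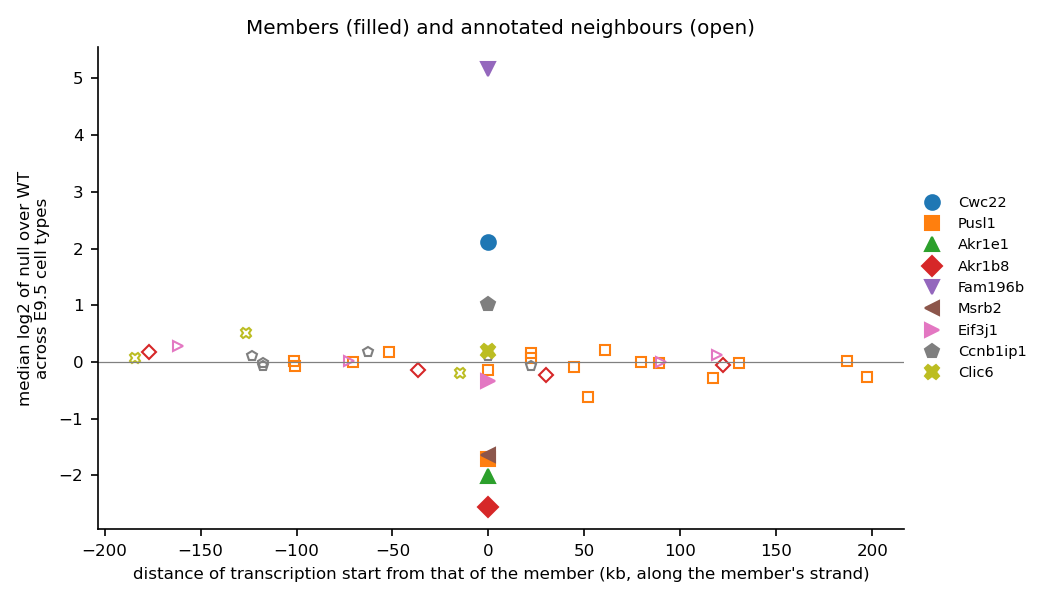
Median log2 of null over WT across E9.5 types (vertical axis) for each member (filled) and its 33 measured neighbours (open, same shape), against the distance between starts in kb (horizontal axis, along the strand of the member). The neighbours lie between -0.61 and 0.50, and *Akr1b8*, *Akr1e1*, *Pusl1* and *Msrb2* lie below -1.6.

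Genes of the members' families were listed too. Those that passed the filter gave 0 calls. All 12 pseudouridine synthases, 13 eIF3 subunits and 12 exon junction and spliceosome partners of CWC22 were tested at each stage. At E9.5 the tests covered 5 of 15 other aldo-keto reductases, 3 of 3 methionine sulfoxide reductases, 2 of 4 chloride intracellular channels and 4 of 7 meiotic crossover factors. The 1 gene related to *Fam196b* was tested in 1 type at E9.5 and in none earlier. With 0.0558% of all E9.5 tests called higher and 0.0641% lower, lists of this size give no or few calls at the rate of all genes, so the 0 does not set the families apart. At E9.5 the medians were -0.11 over 141 tests of aldo-keto reductases, 0.01 over 481 of eIF3 subunits and 0.02 over 444 of the CWC22 partners. For the family lists, there were 2 calls without E9.5 WT A and 3 without E9.5 WT B. At E7.5 and E8.5 a library left out leaves 1 of its genotype, so those counts are not given.

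The change between stages within one genotype was tested over whole libraries with edgeR. In WT, 17.2% of 15293 genes were called between E7.5 and E8.5 and 9.72% between E8.5 and E9.5, and of the members 3 and then 2 were called. *Ccnb1ip1* fell at both steps, by 1.47 (SE 0.32, adjusted p = 0.00707) and by 2.44 (SE 0.28, adjusted p = 0.000714) on the log2 scale. The first of these calls was lost without E8.5 WT A (-1.26, adjusted p = 0.062, edgeR). *Clic6* fell by 1.96 (SE 0.33, adjusted p = 0.00246) and by 1.03 (SE 0.28, adjusted p = 0.0216). *Fam196b* rose from E7.5 to E8.5 by 2.36 (SE 0.69, adjusted p = 0.0237), from 0 and 3 UMIs in the E7.5 libraries. It passed the filter through the later stages, so the size of that rise is not fixed. Its call was lost with DESeq2 (adjusted p = 0.0568) and without E7.5 WT A, E8.5 WT A or E8.5 WT B.

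*Cwc22* in WT declined by less than the fold required for a call. Its log2 change was -0.52 (SE 0.08, adjusted p = 0.00166) from E7.5 to E8.5 and -0.96 (SE 0.07, adjusted p = 0.000175) from E8.5 to E9.5. Within the 2 WT types measured at both E7.5 and E8.5 it was -0.55 and 0.21, so the first decline was not seen in both. Within the 31 WT types measured at both E8.5 and E9.5 its sign was negative in 31, called lower in 10, with a median of -0.89, where 3.19% of all such tests were called. In the same step *Pusl1* had -0.82 (SE 0.22, adjusted p = 0.0246) and *Msrb2* 0.80 (SE 0.17, adjusted p = 0.00737). *Eif3j1* had -0.89 (SE 0.59, adjusted p = 0.282), with the wide spread of the E9.5 WT libraries described above.

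In null libraries, 15.3% and 10.1% of 15271 genes were called at the 2 steps. *Clic6* rose by 1.77 from E7.5 to E8.5 (SE 0.51, adjusted p = 0.0259) and was the only member called there. From E8.5 to E9.5 *Ccnb1ip1* fell by 3.2 (SE 0.20, adjusted p = 3.59e-05), *Clic6* fell by 1.55 (SE 0.40, adjusted p = 0.0174) and *Pusl1* fell by 1.03 (SE 0.31, adjusted p = 0.0318). *Cwc22* had 0.34 (SE 0.13, adjusted p = 0.0776), positive in 19 of 19 types measured at both stages with none called, where 2.88% of all such tests were called. Whether the stage change differs between genotypes was not tested, as it is the contrast that chose the genes.

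Some stage changes of *Clic6* and *Ccnb1ip1* were not the same within cell types. Within the 3 WT types in which *Clic6* was measured at both E8.5 and E9.5 the median log2 change was 1.13, with 1 called higher, and within 3 null types it was 1.42, with 1 called higher, opposite in sign to the whole libraries. For *Ccnb1ip1* the median within 2 WT types was -0.09 at that step. From E7.5 to E8.5 the 1 type measured had a negative change as the whole libraries did, called in WT and not in null (-1.82). The fitted -7.14 in WT rests on 49 UMIs at E7.5 and 0 at E8.5 in Lateral plate mesoderm, so the size of that fall is not fixed. In that earlier WT step 8.55% of all within-type tests were called, and in the null step 6.9%. The makeup of the libraries differs between stages, and its part in the whole-library values was not tested. Leaving out E8.5 WT B left *Clic6* in WT at -0.50 (adjusted p = 0.262), and its call was also lost without E9.5 WT B (adjusted p = 0.0536) or E9.5 WT C (-0.90). Leaving out E8.5 null B left null *Clic6* at -0.65 (adjusted p = 0.1995) and *Pusl1* at -0.42 (adjusted p = 0.299). The null *Pusl1* call was also lost without E9.5 null A, C or D (adjusted p = 0.0789, 0.0564 and 0.0527), and within 14 null types its median was -0.71 with 0 called. Null *Clic6* from E7.5 to E8.5 was not called without E7.5 null A, E7.5 null B or E8.5 null B. Its log2 change was 2.4, 1.52 and 0.90 in that order, against 1.77 with all libraries. Each of these fits leaves 1 null library at a stage.

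The sorting left some cells with the other tdTomato status, and these were compared with the remaining cells of their own library, with the library as a block. Among WT-sorted cells, 596 held a tdTomato UMI, with a median of 1, against a median of 6 in null-sorted cells that held any. The 9 members gave 0 calls in this comparison (edgeR, 7 libraries with at least 5 such cells), where 0.978% of 14115 genes were called. At an unadjusted p under 0.05 there were 2 members, *Akr1e1* at -0.53 (SE 0.15, adjusted p = 0.0725) and *Ccnb1ip1* at -0.85 (SE 0.41, adjusted p = 0.474). The share of all genes at that looser limit is not given, so nothing is read from the count.

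*Cwc22* in these cells had a log2 difference of 0.01 (SE 0.08). At E9.5 its mean was 41.5 ± 1.31 CPM in WT-sorted cells with a tdTomato UMI and 37.7 ± 0.818 CPM in those without (SD, n = 4 each), against 166 ± 7.62 CPM in null-sorted cells with a tdTomato UMI. *Pusl1* was 19.7 ± 4.42, 21.8 ± 5.65 and 6.38 ± 0.843 CPM in the same order. The 4 WT-sorted sums with a UMI lay between 40.4 and 42.8 CPM for *Cwc22*, just above the 36.7 to 38.5 CPM of those without, while for *Pusl1* the WT-sorted classes overlapped. For both genes neither WT-sorted class reached the null-sorted cells with a UMI.

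Among null-sorted cells 1018 held no tdTomato UMI. They had a median of 28290 UMIs, against 34340 in those with one, and 26.9% were of the Erythroid type, against 2.98%. Against null-sorted cells with a tdTomato UMI, 2.2% of 13836 genes were called. *Akr1e1* (1.25, SE 0.24, adjusted p = 0.00474), *Akr1b8* (1.03, SE 0.25, adjusted p = 0.0186) and *Ccnb1ip1* (1.54, SE 0.23, adjusted p = 0.00103) were higher in the cells without a UMI (log2, 8 libraries). *Pusl1* at 0.69 (SE 0.16, adjusted p = 0.0168) and *Msrb2* at 0.83 (SE 0.22, adjusted p = 0.0318) passed the p but not the fold. The *Akr1b8* call was lost without E8.5 null A (1.14) or E9.5 null A, B or D (0.98, 0.88 and 0.99).

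After the cells with a tdTomato UMI were reweighted to the same cell types, *Akr1e1* alone was called, at 1.19 (adjusted p = 0.00768), while *Akr1b8* had 0.90 (adjusted p = 0.158). *Ccnb1ip1* had 0.25 (adjusted p = 0.662). *Pusl1* had 0.54 (adjusted p = 0.121) and *Msrb2* 0.65 (adjusted p = 0.253), so both lost the p. *Cwc22* had -0.43 (adjusted p = 0.359, and -0.36 with adjusted p = 0.297 before reweighting). *Fam196b* had -0.58 (adjusted p = 0.4695, and -0.69 with adjusted p = 0.176 before). At E9.5, null-sorted cells without a UMI held *Akr1e1* at 11.8, 13.8, 12.99 and 7.86 CPM in libraries A to D, while those with one held 5.17, 2.77, 3.61 and 2.95 CPM, and the WT mean was 16.6 CPM. At E8.5, where null A and B had 390 and 318 such cells, they held 4.67 and 3.43 CPM against 3.93 and 1.85 CPM, and the WT mean was 18.2 CPM. The shift toward the WT level thus differed in size between the stages, a difference that was not tested.

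**Figure D5:**
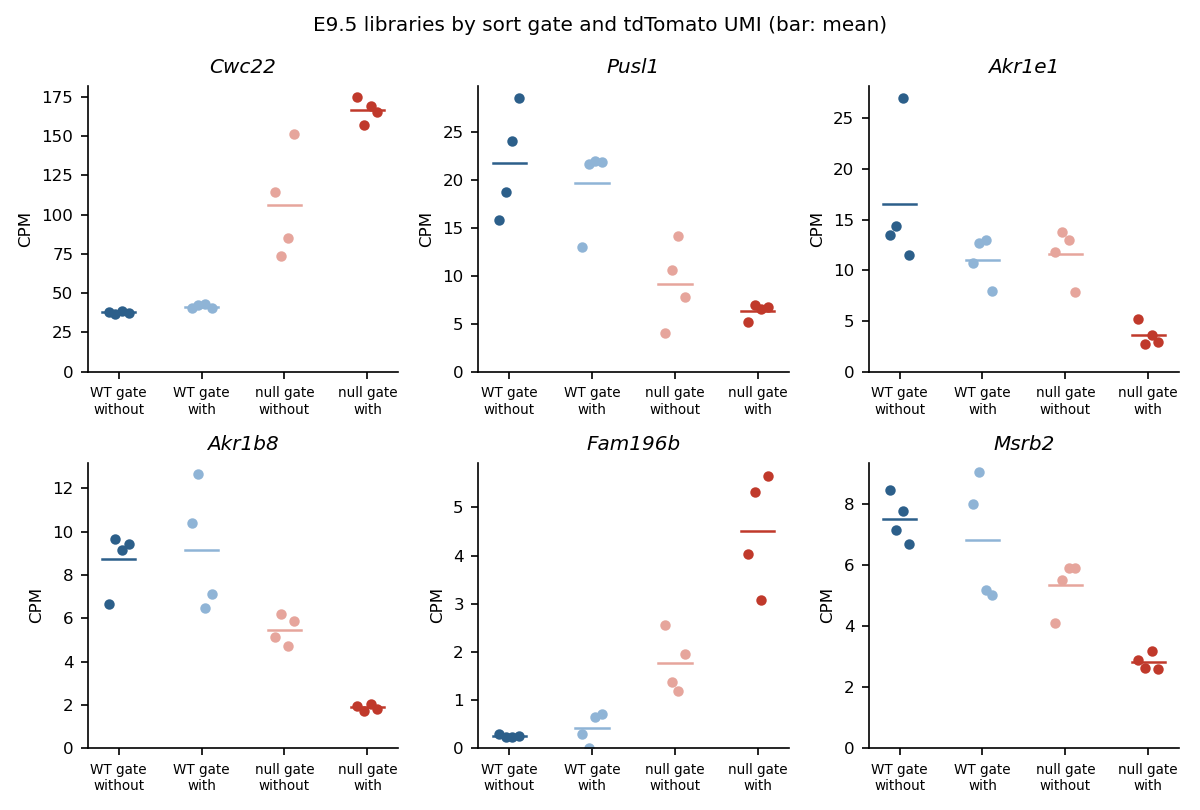
Levels of 6 members in the E9.5 libraries (vertical axis, CPM from 0; horizontal axis, sort gate and whether a cell held a tdTomato UMI; points, 4 libraries a class; bars, means). WT-sorted cells with a UMI lie near those without, at 41.5 and 37.7 CPM for *Cwc22*, and null-sorted cells without a UMI lie between the classes for *Cwc22*, at 106 CPM, and for *Akr1b8*, at 5.48 CPM.

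Genes whose level most resembled a member's were sought over 59 WT sums of a stage and type with at least 100 cells each, by Pearson's r of log2(CPM + 1), as a description in which the sums share libraries and depth. Among the genes like *Cwc22* were *Cox7a2* (r = 0.87) and *Cox7b* (0.85), and *Pusl1* was most like *Eef1d* (0.85), *Lsm12* (0.83) and *Polr2f* (0.82). *Eif3j1* was most like *Srm* (0.87), *Tomm5* (0.83) and *Gnl3* (0.82), and *Ccnb1ip1* like *Tuba4a* (0.88), *Uqcr10* (0.86) and *Tmem238* (0.85). *Clic6* was most like *Cgn*, *Hook2* and *Crb3* (0.83, 0.82 and 0.80). No gene reached 0.8 for *Akr1e1*, *Akr1b8*, *Fam196b* or *Msrb2*.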

How the data were processed

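Single cells of sorted chimeras were profiled by droplet RNA sequencing. Per the labels and the study's methods, the authors aligned reads to mm10 with Cell Ranger, filtered cells, called doublets and assigned cell types by mapping to a reference atlas. The deposited matrix holds raw UMI counts, and the authors' cell table gives the percent of mitochondrial counts, which was used only to describe libraries. Library names matched no sample title, so groups came from stage and the tdTomato sort. Per-sample columns left unmatched numbered 0.

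Left out were 3395 cells that the authors called doublets and 596 cells sorted as WT that held a tdTomato UMI. Counts were summed per library, stage and cell type and fitted with edgeR 4.0.16 (quasi-likelihood, TMM, Benjamini-Hochberg adjustment over all genes of a fit), with a call at an adjusted p of 0.05 and a log2 change over 1. Genes named were the 9 members, *Stat3*, non-members called in most of their E9.5 types, neighbours and family genes with most calls, and the 3 most similar genes at r of at least 0.8, of which 1 is not reported here. *Acap3*, *Ints11*, *Parp2*, *Akr1b3*, *Akr1b10*, *Eif3j2* and *Trhde* were named for their position, family or calls after values were seen. Members and lists were chosen with earlier results of these data known. Alternatives were DESeq2 1.42.0, no filter on low counts, larger sums, each library left out, thinning, reweighting and leaving out doubtful cells. The scripts were tested on simulated data. Mitochondrial, ribosomal protein, haemoglobin, Y-linked, *Xist*, *Tsix*, tdTomato and unnamed (Gm and Rik) genes, 8178 of 29453, stayed out of the fits. The precision of a level is set by the UMIs behind it, 20682659 to 138613245 per library over all genes.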

Additional observations from a re-analysis of the deposited data

Results flagged for a closer look

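One E9.5 WT library stood apart for *Akr1b8*: WT A held 6.68 CPM, against 9.17 to 9.65 CPM in the other WT libraries. It was the only one of 18 groups of 4 libraries and genes in which the gap passed Dixon's 95% critical value, and chance flags about 1 in 20. The doublet calls, which no comparison used, carried the difference for *Cwc22* and *Fam196b*. In E9.5 null-sorted doublets *Cwc22* had a mean of 170.4 CPM, against 38.95 to 41.4 CPM in the 4 WT-sorted doublet sums. *Fam196b* had a mean of 4.30 CPM in the E9.5 null-sorted doublets, against 0.0842 to 0.328 CPM in the WT-sorted ones. *Ccnb1ip1* did not follow its library values there, with means of 3.13 CPM in null-sorted and 3.16 CPM in WT-sorted doublets at E8.5 and 0.566 and 0.651 CPM at E9.5.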

How the results depend on the processing

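No paired analysis was possible because the libraries in the cell table carry no replicate numbers and match no sample title. In genotype or stage fits, leaving out an E7.5 or E8.5 library leaves 1 of its genotype at that stage. Such fits have no replication in that group, so nothing is read from their call counts below, whether lower or higher. The number of member calls over types was 20 at E7.5 (13 with DESeq2, 9 to 20 with a library left out, with 9 without null A and 13 without WT B), 17 at E8.5 (8 with DESeq2, 43 with no filter on low counts, 3 with over 50 cells per sum, 28 without null-sorted cells lacking tdTomato, 15 to 36 with a library left out, with 36 without null A and 31 without null B) and 101 at E9.5 (57 with over 50 cells per sum, 94 to 102 with a library left out). Neighbour calls numbered 4 (0 with DESeq2, 1 with over 50 cells per sum, 2 without E9.5 null B, WT C or WT D). Family calls numbered 0 (4 without null-sorted cells lacking tdTomato, 2 without E9.5 WT A, 3 without E9.5 WT B). Members called numbered 1 to 3 for either WT step, 0 to 1 for the first null step and 1 to 3 for the second with a library left out. For null-sorted cells without tdTomato they numbered 3 (1 reweighted, 5 by the exact test unadjusted, 2 to 3 with a library left out), and for WT-sorted cells with it 0 (1 by the exact test unadjusted). The exact test was run on the members only, so its counts have no share of all genes beside them. Members with groups apart at E9.5 numbered 6 with a library left out. The share of all genes is not given for that setting, and as the rule used this contrast nothing is read from the count. Leaving out a library at E7.5 or E8.5 leaves 1 of its genotype, so groups apart are not counted there. Signs turned for *Akr1b8* in WT from E7.5 to E8.5 (1.11 within types), *Clic6* from E8.5 to E9.5 (1.13 in WT and 1.42 in null within types) and the *Eif3j1* share of cells at E7.5 (-0.0984 points when thinned). The cause was not tested. Of the single-gene values, 874 kept their call or moved by less than the spread, and 24 lost a call. Depth limits *Fam196b*, *Clic6* and, after E7.5, *Ccnb1ip1*, which passed the filter in few types. Libraries at E9.5 exceed the embryos named by the study, so their spread may be partly technical and p-values that rest on it too small.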
